A study of Mus musculus with 8 samples.

Results

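The genes of the elastic fibre and its microfibril scaffold were followed in tumour cells: Eln, Fbn1, Fbn2, Fbln1, Fbln2, Fbln5, Mfap2, Mfap4, Mfap5 and Emilin1. These 10 genes were taken by name out of 35498 genes in the deposited tables, with estimated read counts and TPM values summed over each gene's transcript models, 46 models in all. All 10 passed the filter on low counts and were tested, among 16309 tested genes. In build mm10 (GENCODE M21 annotation) the gene spans are chr5:134702593-134747323 for Eln, chr2:125300594-125507993 for Fbn1, chr12:101746565-101819055 for Fbln5 and chr5:30913402-30921277 for Emilin1. Those of Fbln1 and Fbln2 are chr15:85205949-85286535 and chr6:91212455-91272540. The microfibril-associated genes Mfap2, Mfap4 and Mfap5 lie at chr4:141010418-141015984, chr11:61485431-61488900 and chr6:122505845-122529290.

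Elastic fibres give tissue its recoil. They consist of a core of cross-linked elastin, deposited on a sheath of microfibrils whose backbone is fibrillin; fibulins and EMILIN sit at the interface and help elastin to assemble, and microfibril-associated glycoproteins (the Mfap genes) decorate the fibrillin. Lysyl oxidases cross-link the elastin, and fibrillin microfibrils also hold latent TGF-β and BMP in the matrix.

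The cells came from 1 mouse sarcoma line of C57BL/6 background, made from mesenchymal stem cells that had lost p53 and overexpressed Ccne1 (cyclin E1), so all 4 groups share both lesions. The line was given a guide RNA with Cas9 (control sgSCR, or sgMif against Mif, a knockout) or a short hairpin RNA (control shSCR, or shMif against Mif, a knockdown). Mif is the gene of a cytokine that tumour cells secrete. The series text names Cas9 for the hairpin arm too, whereas the sample protocol names it for the guide samples only. Subcutaneous tumours were raised on scaffolds of polyurethane in recipients up to a size of about 1 cm3, and tumour cells were sorted from the digest by a fluorescent marker, so that the host's own cells were meant to be removed. The sources used here give neither recipient age nor the number of tumours per library. Each group has 2 libraries, and nothing says whether these came from separate tumours, so the spread behind the p-values may be technical.

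Totals ranged from 19042235 to 51819308 estimated reads per library. Mif itself was at 377 and 455 CPM (read counts scaled to library size, after TMM scaling) in sgSCR and 221 and 222 in sgMif, a log2 difference of -0.91 ± 0.32 (SE) with an adjusted p of 0.215. It was at 170 and 375 CPM in shSCR and 277 and 222 in shMif, where the groups overlap, so a lower Mif transcript was not shown in the libraries labelled shMif. The mesenchymal tumour cell markers (8 genes, Col1a1, Vim and Pdgfrb among them) were all above 1 CPM in every library, with a summed level of 16231 to 36901 CPM. Transcripts of olfactory receptor genes summed to 1330 CPM or more in 5 libraries and to 553 CPM or less in sgMif 2, shSCR 2 and shMif 2. The shSCR pair differed most between replicates, and shSCR 1 had the lowest mitochondrial share (1.63% against 2.12 to 2.65%). Endothelial markers summed to 40.9 to 282 CPM, with Pecam1 at 37.0 CPM or less in the 3 libraries of low olfactory sum and at 111 CPM or more in the other 5. Pecam1 alone carried most of the high sums, with 246 of 272 CPM in sgSCR 1. The marker Cdh5 did not follow that split, at 26.0 CPM in sgMif 1 and 5.59 to 9.97 CPM elsewhere. Markers of B and plasma cells (3.18 to 37.4 CPM), T and NK cells (1.89 to 8.19 CPM) and keratinocytes (2.33 to 8.45 CPM) were low throughout.

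Fbln2 dominated the family at the RNA level. Fbln2 encodes fibulin-2, a matrix glycoprotein that binds fibrillin and tropoelastin, and its mean level over the 8 libraries was 563 TPM (a level per transcript length, which allows genes to be compared). The order below it was Emilin1 at 72.7, Fbn1 at 63.0, Mfap2 at 50.7, Fbln1 at 18.1, Fbln5 at 17.6, Mfap4 at 17.3 and Mfap5 at 8.09 TPM. Elastin itself was nearly last, with Eln at 1.04 TPM and Fbn2 at 0.56 TPM. Fbln2 was above every other member in every library, from 345 to 929 TPM, while from Emilin1 down to Mfap5 each neighbour in the order overlapped the next in its range over libraries. Mfap5 stayed above Eln in every library (lowest Mfap5 1.95 TPM, highest Eln 1.79 TPM), and the ranges of Eln and Fbn2 overlapped. Eln stayed at 1.79 TPM or less in every library.

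**Figure D1:**
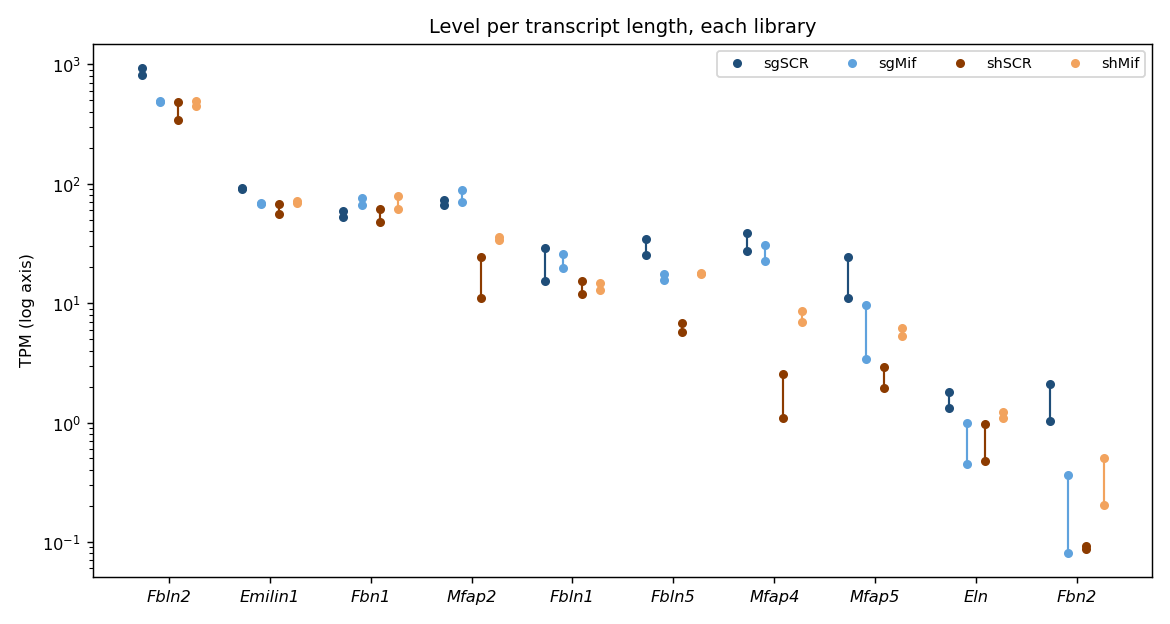
Level of each member in TPM (log axis), 1 point per library and a line joining the 2 libraries of a group; genes are ordered by their mean over the 8 libraries. Fbln2 lies above all other members in every library, and Eln and Fbn2 lie near or below 2.10 TPM.

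The order also differed between groups. Mfap4 encodes a fibrinogen-domain protein that binds tropoelastin and fibrillin, and its rank was 5 in sgSCR at 33.0 ± 7.96 TPM (SD, n = 2) and 8 in shSCR at 1.82 ± 1.04 TPM (SD, n = 2). Mfap2 encodes MAGP-1, which binds fibrillin and TGF-β family ligands. Its rank was 3 in sgSCR at 70.2 ± 5.03 TPM (SD, n = 2) and 4 in shSCR at 17.8 ± 9.58 TPM (SD, n = 2). Fbn2, the fibrillin made mostly in development, was just above Eln in sgSCR (1.57 and 1.55 TPM, with overlapping libraries) and the lowest member in the other 3 groups. In sgSCR 2 much of the Fbn2 TPM sat on short retained-intron models with few reads. Fbn2-205 (600 bases) held 41.1% on 4.99 reads, and Fbn2-202 (681 bases) held 21.4% on 3.33 reads.

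Short transcript models carry part of these TPM values, because a few reads on a short model give many TPM. Of the Fbln2 TPM, a median of 50.8% sat on the 4644-base model Fbln2-202 and 30.5% on the 377-base model Fbln2-205, which held only 385 to 1488 reads per library against 18109 to 72001 for Fbln2-202. For Fbn1, encoding fibrillin-1, the backbone of adult microfibrils, a median of 20.6% of TPM sat on a retained-intron model, Fbn1-203, which had 0 reads in shSCR 1 and 285 to 1312 reads in the other libraries. Fbln1 was split between 2 protein-coding models in every library, Fbln1-202 with a median of 62.2% and Fbln1-201 with 37.8% of its TPM. Salmon divides reads that fit several models by a statistical estimate, so such shares are estimates.

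For Mfap4 and Eln the division between models was not stable. The 1918 reads of Mfap4 in sgSCR 1 were all assigned to the protein-coding model Mfap4-202, which received 0 reads in each of the other 7 libraries. There the processed-transcript model Mfap4-203 held most reads, 715 in sgSCR 2, 562 and 1529 in sgMif, 20.3 and 76.0 in shSCR and 121 and 318 in shMif. The share of Eln reads on its protein-coding model ranged from 19.4% in shMif 1 to 100% in shSCR 2, on few reads (11.8 reads in shMif 1 and 188 in shSCR 2). For the other 8 members at least 87.4% of reads sat on protein-coding models in every library, as the plot of reads by transcript class shows. Comparisons below therefore use sums per gene.

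**Figure D2:**
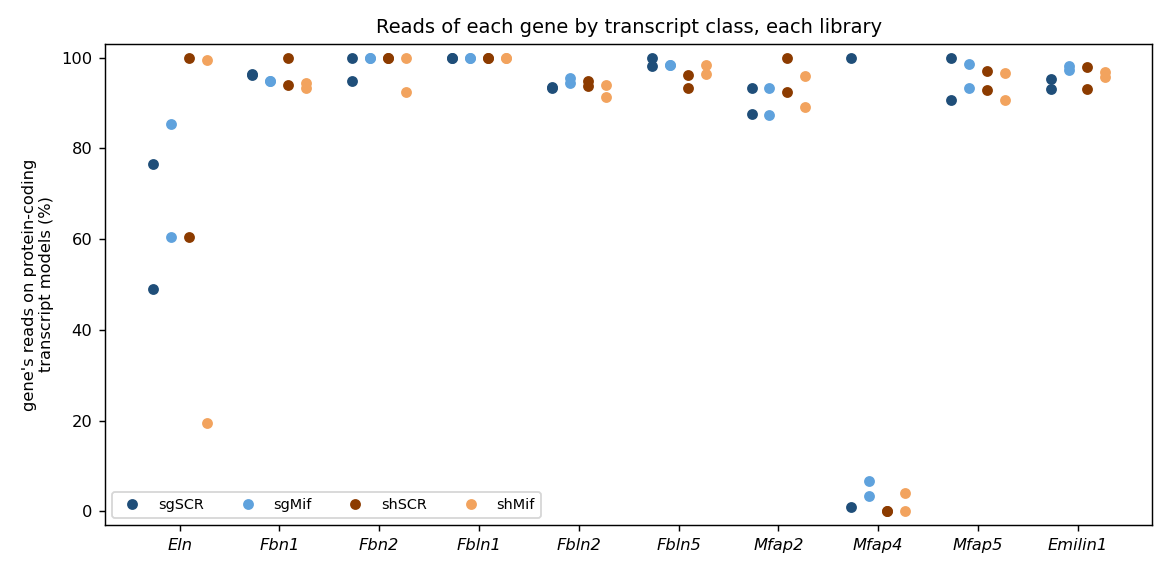
Percentage of each gene's estimated reads assigned to protein-coding transcript models, 1 point per library, coloured by group. Mfap4 lies at 100% in sgSCR 1 and at 6.77% or less in the other 7 libraries, and Eln ranges from 19.4 to 100%.

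The largest differences in the family lay between the control groups, which both carry unaltered Mif. Of the 10 members, 6 were lower in shSCR than in sgSCR at an adjusted p under 0.05 (edgeR quasi-likelihood test with Benjamini-Hochberg adjustment over all genes) and none was higher, where 1.79% of all tested genes were called lower. The 6 were Mfap4, Fbn2, Fbln5, Mfap5, Mfap2 and Fbln2, so the fall spanned fibulins, a fibrillin and all 3 microfibril-associated genes. The median log2 difference over the 10 members was -1.48, against -0.04 over all tested genes. In the same 6 members the shSCR libraries were both below both sgSCR libraries, a pattern 26.3% of all genes showed in that direction.

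Mfap4 was at 48.2 and 36.0 CPM in sgSCR and at 0.73 and 1.53 CPM in shSCR, on only 28 and 76 reads in the shSCR libraries. It was thus 36.7-fold lower in shSCR (log2 -5.20 ± 0.40 SE, adjusted p 0.00165), the widest gap among the members, and the sgMif libraries, at 27.5 and 36.0 CPM, lay near sgSCR. In TPM the log2 ratio of the group means was -4.18 against -5.22 in CPM, and the 348-base model Mfap4-204 held 85.7% of the Mfap4 TPM in shSCR 1.

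Fbn2 was at 9.56 and 7.88 CPM in sgSCR and at 0.91 and 0.89 CPM in shSCR. The difference was 9.68-fold (log2 -3.27 ± 0.67 SE, adjusted p 0.0402), on 35 and 44 reads in the shSCR libraries. Mfap5, encoding MAGP-2, was at 5.51 and 8.62 CPM in sgSCR and 1.74 and 1.72 CPM in shSCR (log2 -2.03 ± 0.43 SE, adjusted p 0.0429). Both genes are among the rarest members, with the call resting on few reads.

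Fbln5 encodes fibulin-5, which tethers tropoelastin to microfibrils and to integrins and is needed for elastic fibre assembly. It was at 45.0 and 62.4 CPM in sgSCR and 10.9 and 12.9 CPM in shSCR. The shSCR level was 4.49-fold lower (log2 -2.17 ± 0.21 SE, adjusted p 0.00358), and no library of one control overlapped the other. Mfap2 was at 37.6 and 46.2 CPM in sgSCR and 7.73 and 15.6 CPM in shSCR (log2 -1.84 ± 0.34 SE, adjusted p 0.0305). Fbln2, the most abundant member, was at 2021 and 2264 CPM in sgSCR and 920 and 1052 CPM in shSCR (log2 -1.12 ± 0.14 SE, adjusted p 0.0106). This 2.17-fold difference was the smallest of the 6 but the largest in reads.

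The remaining members did not pass between the controls. Fbn1, at 419 and 377 CPM in sgSCR and 426 and 440 CPM in shSCR, was close in both (log2 0.12 ± 0.18 SE, 95% interval -0.29 to 0.53). Emilin1 encodes EMILIN-1, an elastin-microfibril interface protein that restrains TGF-β processing. It was at 237 and 264 CPM in sgSCR and 145 and 267 CPM in shSCR, where only shSCR 1 was low. Fbln1 (fibulin-1) was at 63.8 and 35.1 CPM in sgSCR and 29.6 and 36.9 CPM in shSCR, and its libraries overlap. Eln was at 3.67 and 6.23 CPM against 1.30 and 3.79 CPM (log2 -0.95, 95% interval -2.34 to 0.43), an interval that takes in both no difference and a fall larger than that of Fbln2.

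Mfap4 and Fbln5 kept their call without each of the 8 libraries in turn. In the other settings Fbln5 kept it throughout, and Mfap4 lost it in 1, with adjusted p of up to 0.0789. The count of 6 fell to 2 without sgSCR 1 or without sgSCR 2, and to 3 without shSCR 1, shMif 1 or shMif 2. The arms differ in vector as well as in any handling the labels do not give, so these cannot be told apart.

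Fbln5 and Mfap2 had a RefSeq start site within 16 bases of the start of the protein-coding model with the highest median TPM share, Fbln5-203 and Mfap2-203. For Mfap2 the lead was slight, 43.3% against 41.0% for Mfap2-201, which had more reads in 6 of 8 libraries. For these 2 genes the 250 bases before that start site (RefSeq, build GRCm38.p6) are shown because both genes were lower in shSCR than in sgSCR. The Fbln5 window is chr12:101818485-101818734 on the minus strand, with 1 base in an annotated exon, and the Mfap2 window is chr4:141010174-141010423 on the plus strand, with 6 bases in an exon. Capitals mark motif matches on either strand.
Fbln5: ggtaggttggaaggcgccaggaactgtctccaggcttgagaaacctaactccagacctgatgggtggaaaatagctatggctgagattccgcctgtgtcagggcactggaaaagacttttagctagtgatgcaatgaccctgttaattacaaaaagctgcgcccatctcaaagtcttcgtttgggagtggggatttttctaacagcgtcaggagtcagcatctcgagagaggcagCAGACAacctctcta
Mfap2: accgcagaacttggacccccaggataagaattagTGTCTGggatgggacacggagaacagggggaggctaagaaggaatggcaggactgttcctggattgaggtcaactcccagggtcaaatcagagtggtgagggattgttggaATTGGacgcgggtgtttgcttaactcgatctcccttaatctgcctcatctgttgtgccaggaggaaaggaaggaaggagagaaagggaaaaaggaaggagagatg
The motifs searched, on both strands, were the GC box (GGGCGG), the TATA box (TATAAA), the CCAAT box (CCAAT), the AP-1 site (TGANTCA) and a SMAD element (CAGACA), none of which overlaps another in the windows shown. The SMAD element stood at bases -15 to -10 before the Fbln5 start and at -216 to -211 before the Mfap2 start, and 17.1% of 32851 promoter windows of the same length hold it. Mfap2 also held a CCAAT box at -105 to -101, as 33.8% of all windows do. The GC content was 49.6% for Fbln5 and 51.2% for Mfap2, near the median of 52.4% over all windows. Neither window held the letters of the GC box (32.7% of windows), the TATA box (12.4%) or the AP-1 site (6.75%). A match describes the letters and is not evidence of a factor bound there. No promoter sequence is shown for the other members. For Fbln2, also lower in shSCR, the nearest RefSeq start site was 309 bases from the start of Fbln2-202.

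**Figure D3:**
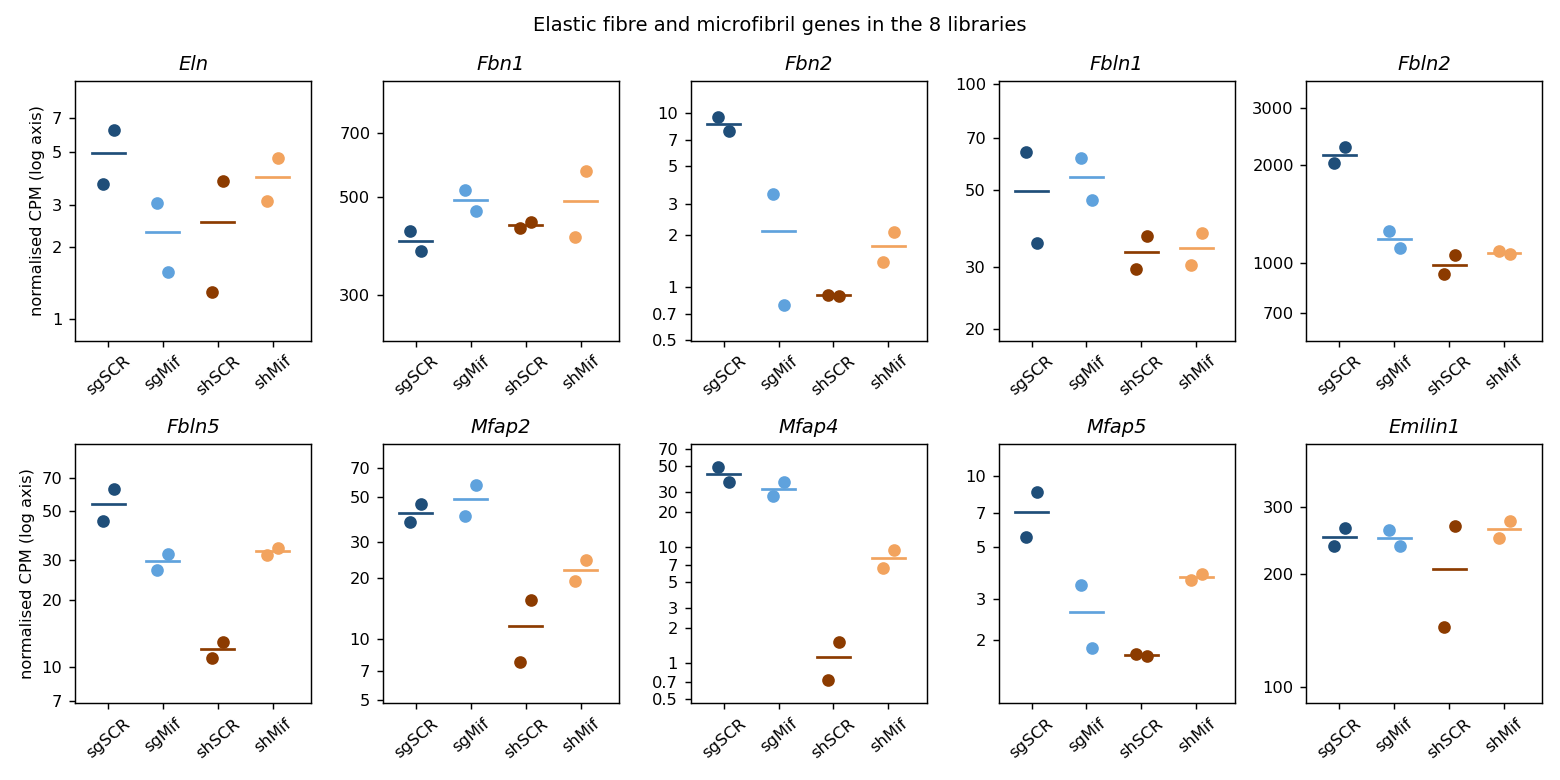
Normalised CPM (log axis, a separate scale per gene) of the 10 members, 1 point per library and a bar at the mean of each group's 2 libraries. The shSCR libraries are the lowest for Fbln5, Mfap2, Mfap4 and Mfap5, and the sgSCR libraries are the highest for Fbn2, Fbln2, Fbln5 and Mfap5.

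Of 9 measured cross-linking genes, 2 were lower in shSCR than in sgSCR, Lox and Loxl3, and none was higher. Of all genes, 1.79% were called lower and 2.23% higher. Lox, the lysyl oxidase that cross-links collagen and elastin, was at 1078 and 1233 CPM in sgSCR and at 369 and 450 CPM in shSCR (log2 -1.50 ± 0.16 SE, adjusted p 0.00471). Loxl3, a related oxidase, had a log2 difference of -1.25 ± 0.20 SE (adjusted p 0.0216). Bmp1, the proteinase that activates Lox and trims procollagens, and its enhancer Pcolce had log2 differences of -0.66 and -0.58 with adjusted p of 0.0703 and 0.0867.

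Other matrix partners of the fibre went both ways between the controls. Of 28 partner genes, 24 were tested. Among them 2 were lower in shSCR and 1 was higher, where 1.79% and 2.23% of all genes were. Efemp2 (fibulin-4, which brings Lox to tropoelastin) had a log2 difference of -0.90 ± 0.14 SE (adjusted p 0.0181), and Dcn (decorin, a proteoglycan that binds collagen and microfibrils) one of -1.12 ± 0.22 SE (adjusted p 0.037). Fn1, the fibronectin on which microfibrils assemble, was higher in shSCR, at 12461 and 12005 CPM against 6696 and 7633 CPM (log2 0.77 ± 0.17 SE, adjusted p 0.046). Adamtsl2, a microfibril-binding protein, had an adjusted p of 0.0551. Of 17 genes of elastin breakdown and its inhibitors, 14 were tested and none was lower. Ctsl, the lysosomal protease cathepsin L, was the 1 that rose (log2 0.79 ± 0.15 SE, adjusted p 0.0354), where 2.23% of all genes did. The next in order of p were the inhibitor Timp1 (log2 -0.87, adjusted p 0.0709), the gelatinase Mmp9 (log2 -0.70, adjusted p 0.0963) and the inhibitor Timp2 (log2 -0.50, adjusted p 0.124).

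Of 11 markers of skin fibroblasts, a host cell type that makes these fibres, 3 were lower in shSCR than in sgSCR and none was higher. Of all genes, 1.79% were called lower and 2.23% higher. The 3 were Lum (log2 -5.04 ± 0.65 SE, adjusted p 0.0106), Dpt (log2 -1.81 ± 0.26 SE, adjusted p 0.0163) and Dcn, also among the partners. A negative estimate was found in 8 of the 11, where 52.4% of all genes had one. At an unadjusted p under 0.05 by edgeR, 8 were lower and 1 was higher, where 10% and 12.9% of all genes were. In 8 both shSCR libraries lay below both sgSCR libraries (26.3% of all genes), and in 2 above them (28.4%). Ly6a was at 108 and 93.2 CPM in sgSCR and 122 and 202 CPM in shSCR, and Cd34 at 127 and 124 CPM against 131 and 162 CPM, both without overlap and without passing. The 11 markers summed to 2275 and 2056 CPM in sgSCR and 1538 and 1574 CPM in shSCR. In sgMif the sums were 1275 and 1129 CPM, and in shMif 1602 and 1692 CPM. Dcn made up much of this. The other 10 markers summed to 1037 and 1028 CPM in sgSCR and 1046 and 1024 CPM in shSCR. In sgMif they summed to 968 and 937 CPM, and in shMif to 1057 and 1126 CPM. Pdgfra held much of that rest, at 457 and 522 CPM in sgSCR and 680 and 518 CPM in shSCR. None of the 11 was at 0 in all libraries. The 8 mesenchymal tumour cell markers summed to 28923 and 30225 CPM in sgSCR and 16231 and 22806 CPM in shSCR. Of these 8 none passed by edgeR, 3 were lower at an unadjusted p under 0.05, and 7 had a negative estimate, with a median log2 difference of -0.58. Over all genes, 10% were lower at that unadjusted p and 52.4% had a negative estimate. Sorted mesenchymal tumour cells can make the same RNAs, and the part of either cell type in the result was not tested. In bulk RNA, fewer cells of a type and less RNA per cell cannot be told apart.

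Knockout of Mif in the guide arm went with lower Fbln2. Of the 10 members only Fbln2 passed, 1 lower and none higher, where 0.619% of all tested genes were called lower. Fbln2 was at 2021 and 2264 CPM in sgSCR and 1253 and 1109 CPM in sgMif, so both sgMif libraries lay below both controls. The difference was 1.81-fold (log2 -0.86 ± 0.14 SE, adjusted p 0.0404). Altogether 7 of 10 members had a negative log2 difference (50.5% of all genes), with a median of -0.63 against -0.01 over all genes. In 5 members both sgMif libraries lay below both controls, a pattern shown by 24.2% of all genes. The 1 member with both sgMif libraries above both controls was Fbn1, a pattern shown by 27.1% of all genes.

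Fbln5 was at 45.0 and 62.4 CPM in sgSCR and 27.2 and 32.1 CPM in sgMif. Its log2 difference, -0.85 ± 0.20 SE, was as large as that of Fbln2 but had an adjusted p of 0.0884. Fbn2 was at 9.56 and 7.88 CPM in sgSCR and 3.42 and 0.79 CPM in sgMif (log2 -2.07 ± 0.64 SE, adjusted p 0.165), and the sgMif libraries differed from each other more than the controls did. Mfap5 was at 5.51 and 8.62 against 3.42 and 1.85 CPM (log2 -1.43 ± 0.42 SE, adjusted p 0.149), and Eln at 3.67 and 6.23 against 3.06 and 1.58 CPM (log2 -1.10 ± 0.61 SE, adjusted p 0.411). In all 4 of these genes the groups did not overlap, but none passed the threshold in the main fit. Over the 16 alternatives Fbln5 passed in 3, the replicate block among them, Fbn2 in 2, Mfap5 in 1 and Eln in 0.

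The other 5 members did not pass, and their intervals took in 0. Fbn1 was at 520 and 466 CPM in sgMif (log2 0.31, 95% interval -0.10 to 0.72). Mfap4 had a log2 difference of -0.41 (95% interval -1.16 to 0.35). Mfap2, at 40.4 and 57.4 CPM in sgMif, had one of 0.23 (95% interval -0.52 to 0.97), which turned to -0.10 with a term for the olfactory class and to -0.04 without sgMif 2. Fbln1 (log2 0.13, 95% interval -0.53 to 0.79; -0.22 without sgSCR 2 and -0.07 without sgMif 1) and Emilin1 (log2 -0.01, 95% interval -0.60 to 0.57) had intervals on both sides of 0, and the sign for Emilin1 changed with several settings. The Fbln2 call was lost without either sgSCR library, either sgMif library, shMif 1 or shMif 2, with log2 differences of -0.94 to -0.76 and adjusted p of up to 0.238 over the libraries left out, and with length-scaled counts (adjusted p 0.164) or an olfactory class term (adjusted p 0.0672); over all 16 alternatives its adjusted p ran from 7.39e-06 to 0.238.

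By edgeR 0.619% of all genes were called lower in sgMif than in sgSCR and 0.368% higher. Among the other genes of the fibre in the guide arm, Lox fell with Fbln2. It was at 1078 and 1233 CPM in sgSCR and 555 and 491 CPM in sgMif (log2 -1.14 ± 0.16 SE, adjusted p 0.033), and it was the 1 lower gene among the 9 cross-linking genes, with none higher. Pcolce (log2 -0.58, adjusted p 0.132), Bmp1 (log2 -0.34, adjusted p 0.365) and Loxl3 (log2 -0.40, adjusted p 0.366) did not pass. Of the 24 tested partners, Dcn was the 1 lower, at 1238 and 1028 CPM in sgSCR and 307 and 192 CPM in sgMif (log2 -2.18 ± 0.23 SE, adjusted p 0.0149). Adamtsl2 was the 1 higher partner (adjusted p 0.0333). It had 0 reads in both sgSCR libraries and 38 and 143 reads in sgMif, at least 22.0-fold higher against a floor of 3 counts per library. Fn1 (log2 0.81 ± 0.17 SE, adjusted p 0.0713) and Tnxb, a tenascin of fibroblast matrix (log2 -4.53 ± 1.00 SE, adjusted p 0.0775), came next.

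Of the 14 tested breakdown genes, Mmp12, the macrophage metalloelastase, was the 1 lower, at 66.1 and 104 CPM in sgSCR and 21.2 and 26.1 CPM in sgMif (log2 -1.85 ± 0.27 SE, adjusted p 0.0333), and none was higher. Cathepsins Ctss (log2 -1.17, adjusted p 0.112) and Ctsl (log2 -0.58, adjusted p 0.114) and Mmp9 (log2 -0.63, adjusted p 0.185) did not pass. The 12 macrophage markers summed to 421 and 187 CPM in sgSCR and 129 and 98.7 CPM in sgMif, and none was at 0 in all libraries. Of the 12, 2 were called lower and 0 higher, where 0.619% and 0.368% of all genes were. A negative estimate was found in 11 of the 12 (50.5% of all genes). Mrc1 and Cd163 made up much of the sum in sgSCR 1. Mrc1 was at 107.3 and 33.95 CPM in sgSCR and 2.01 and 5.59 CPM in sgMif. Cd163 was at 102.6 and 24.93 CPM in sgSCR and at 0 in both sgMif libraries. Lyz2 was not lower in sgMif, at 38.2 and 30.3 CPM in sgSCR and 64.5 and 30.6 CPM in sgMif. The smooth muscle and pericyte markers had higher sums in sgMif, with 640 and 693 CPM in sgSCR and 1613 and 1177 CPM in sgMif. Acta2, the smooth muscle actin of myofibroblasts, was higher in sgMif at 660 and 435 CPM against 106 and 110 CPM (log2 2.34 ± 0.27 SE, adjusted p 0.0196). Of the 11 skin fibroblast markers, 1 was called lower in sgMif (Dcn), where 0.619% of all genes were. At an unadjusted p under 0.05 by edgeR, 6 were lower and 1 was higher, where 7.51% and 9.09% of all genes were. In 7 both sgMif libraries lay below both controls (24.2% of all genes), and in 1 above them (27.1%). The part of these cell types in the result was not tested.

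**Figure D4:**
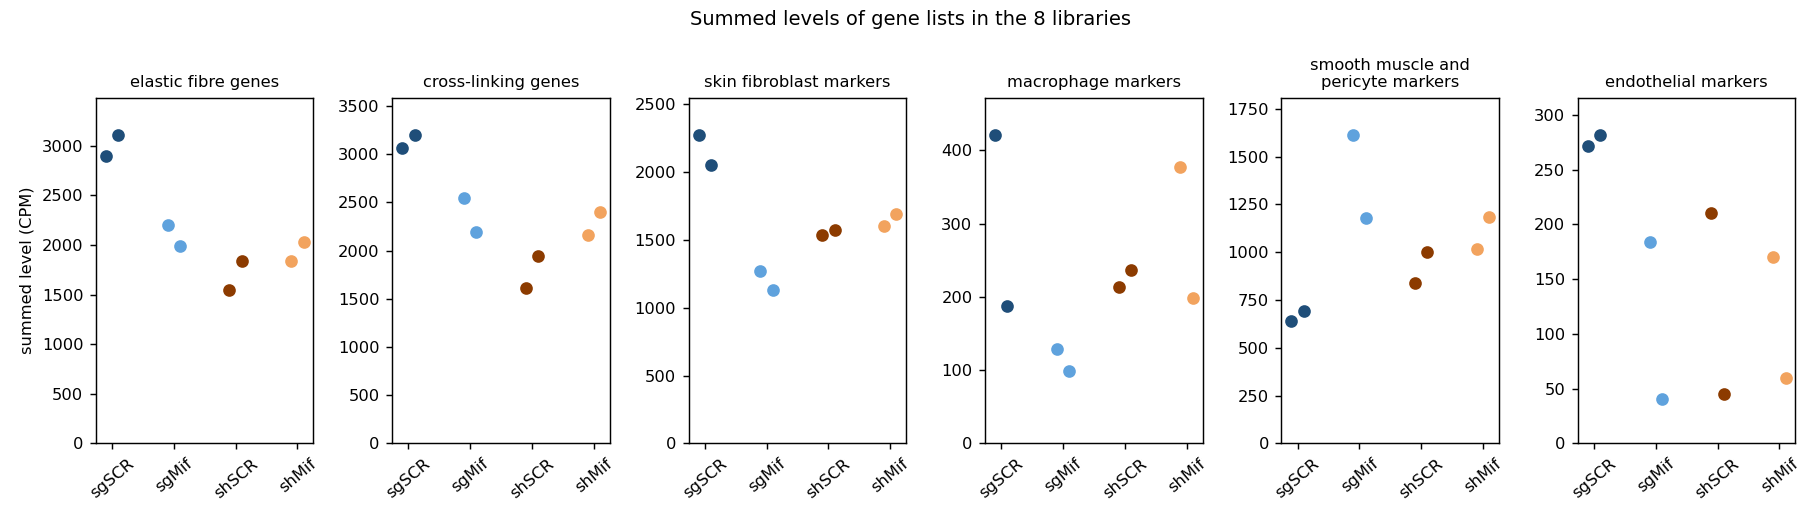
Summed normalised CPM of the member genes, the cross-linking genes and 4 lists of cell type markers, 1 point per library, on linear axes that start at 0. The member, cross-linking and skin fibroblast sums are highest in the sgSCR libraries; without Fbln2 the member sum was 869 and 844 CPM in sgSCR against 948 and 879 CPM in sgMif, and without Dcn the fibroblast sum was no longer highest there, while the smooth muscle and pericyte markers are lowest there (640 and 693 CPM) and highest in sgMif 1 (1613 CPM).

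In the hairpin arm every member had a higher estimate in shMif than in shSCR, but none passed the threshold. The median log2 difference was 0.77 against 0.03 over all genes, of which 46.9% had a negative estimate. By edgeR 0 of 10 were called, where 0.0184% of all genes were called higher; 4 members were higher at an unadjusted p under 0.05, where 4.18% of all genes were. DESeq2 called 2 members higher. Its count over all genes is not given here, so these 2 cannot be set against a share. In 6 members both shMif libraries lay above both controls, as they did in 19.4% of all genes.

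Mfap4 was at 0.73 and 1.53 CPM in shSCR and 6.59 and 9.44 CPM in shMif. Both shMif libraries stood above the controls, and the log2 difference was 2.81 ± 0.37 SE (7.02-fold, adjusted p 0.117; DESeq2 adjusted p 1.08e-12; 1.28e-20 to 0.656 over all alternatives). Even so, shMif remained below every sgSCR and sgMif library, where the lowest value was 27.5 CPM. Fbln5 was at 10.9 and 12.9 CPM in shSCR and 31.7 and 34.0 CPM in shMif (log2 1.46 ± 0.20 SE, adjusted p 0.139; DESeq2 adjusted p 5.2e-07; 1.64e-08 to 0.655 over all alternatives), again with no overlap. The shMif level of Fbln5 lay near the 27.2 and 32.1 CPM of sgMif.

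Mfap2 was at 7.73 and 15.6 CPM in shSCR and 19.3 and 24.4 CPM in shMif (log2 0.91 ± 0.33 SE, adjusted p 0.491). Mfap5 was at 1.74 and 1.72 CPM against 3.60 and 3.84 CPM (log2 1.11 ± 0.42 SE, adjusted p 0.511), and Fbn2 at 0.91 and 0.89 CPM against 1.39 and 2.08 CPM (log2 0.95 ± 0.64 SE, adjusted p 0.662). These 3 genes did not overlap between groups and did not pass. Fbln2, at 920 and 1052 CPM in shSCR and 1084 and 1062 CPM in shMif, differed by log2 0.12 (95% interval -0.21 to 0.45). Eln (log2 0.63, 95% interval -0.75 to 2.01), Emilin1 (log2 0.35, 95% interval -0.24 to 0.94), Fbn1 (log2 0.18, 95% interval -0.23 to 0.59) and Fbln1 (log2 0.03, 95% interval -0.63 to 0.70) overlapped between groups, and the sign changed without 1 library for Emilin1 (-0.03 without shSCR 1), Fbn1 (-0.10 without shMif 2) and Fbln1 (-0.12 without shSCR 1 and -0.14 without shMif 2).

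The hairpin counts moved with 1 control library. Without shSCR 2 the number of members called higher went from 0 to 4, among them Mfap4 (adjusted p 0.00696), Fbln5 (adjusted p 0.0185) and Mfap2 (adjusted p 0.0322, and 0.00353 to 1 over all alternatives), and the number of called genes in the whole table from 3 to 758; other settings with all libraries kept also called members. In the context lists of the hairpin arm no gene of cross-linking (9 tested), partners (24 tested) or breakdown (14 tested) passed, with 4, 7 and 2 genes higher and 0, 2 and 2 lower at an unadjusted p under 0.05 by edgeR (4.18% of all genes higher, 5.08% lower). The first of each in order of p were Lox, at 369 and 450 CPM in shSCR and 726 and 667 CPM in shMif (log2 0.77 ± 0.16 SE, adjusted p 0.352), Efemp1 (fibulin-3), at 6.82 and 7.95 CPM against 21.5 and 35.4 CPM (log2 1.94 ± 0.30 SE, adjusted p 0.194), and Ctsl (log2 -0.98 ± 0.15 SE, adjusted p 0.194). Of the 11 skin fibroblast markers, 10 had a higher estimate in shMif and none passed. At an unadjusted p under 0.05 by edgeR, 5 were higher and 0 lower, where 4.18% and 5.08% of all genes were. A negative estimate was found in 46.9% of all genes.

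The guide and hairpin arms differed in the effect of the Mif label on Fbln5. The test of the difference itself, hairpin effect minus guide effect, passed for Fbln5 alone among the 10 members (log2 2.31 ± 0.28 SE, adjusted p 0.0471), where 0.0858% of all genes passed in that direction. The Fbln5 estimate was log2 -0.85 in the guide arm and log2 1.46 in the hairpin arm, neither of which passed alone. The targeted libraries of both arms ended close together, from 27.2 to 34.0 CPM, and the controls were apart, at 45.0 to 62.4 and 10.9 to 12.9 CPM. The call was kept without shSCR 2 and lost without each of the other 7 libraries, with adjusted p of up to 0.189 and log2 values of 2.01 to 2.51; over all 15 alternatives the adjusted p ran from 2.71e-11 to 0.189.

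For 4 further members the difference of effects was large and did not pass. It was 3.22 ± 0.50 SE for Mfap4 (adjusted p 0.0734), 0.98 ± 0.20 SE for Fbln2 (adjusted p 0.131), 2.54 ± 0.60 SE for Mfap5 (adjusted p 0.162) and 3.03 ± 0.90 SE for Fbn2 (adjusted p 0.199), all on the log2 scale. DESeq2 called 5 members in that direction. Its count over all genes is not given here, so these 5 cannot be set against a share. Over the alternatives, up to 1306 genes of the whole table passed this test in either direction, against 15 in the main fit. Of the context genes, Lox passed (log2 1.91 ± 0.22 SE, adjusted p 0.0471), lower in sgMif and higher in shMif than the control of its own arm, and Dcn and Efemp1 each had an adjusted p of 0.0681. The control comparison and both Mif comparisons share control libraries, so their values for a gene are not independent.

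**Figure D5:**
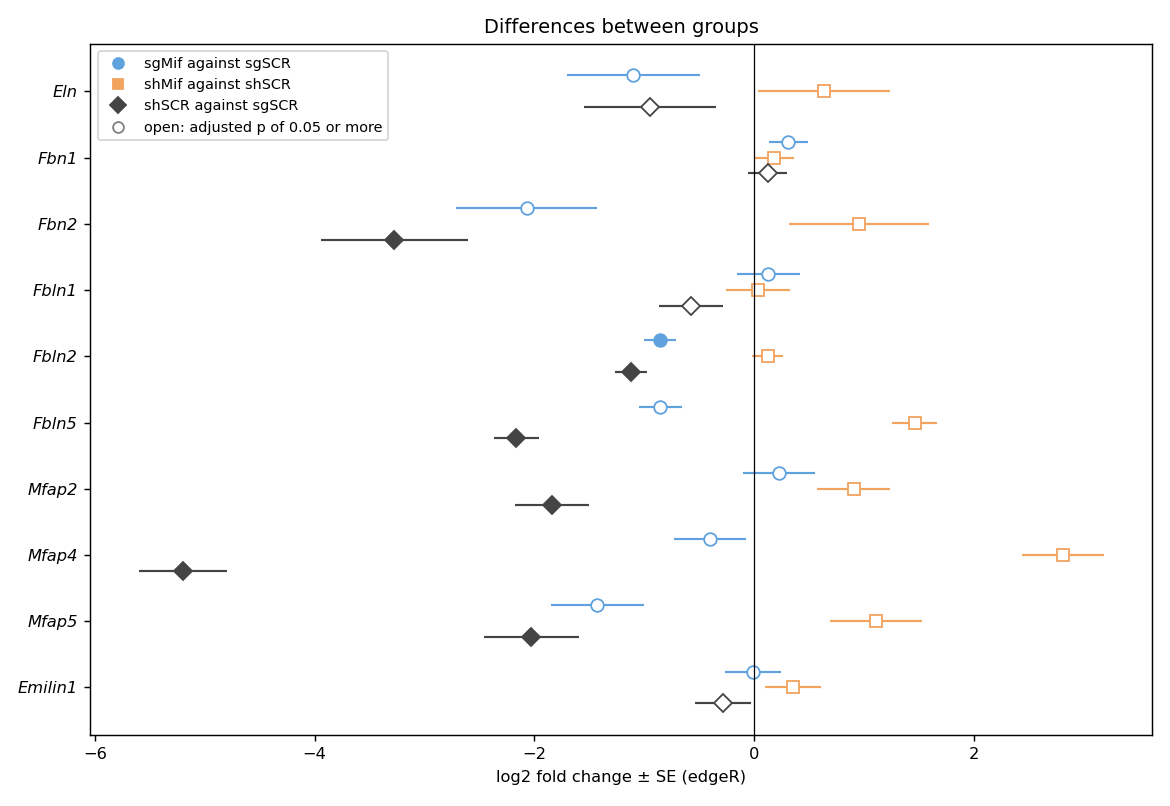
Log2 fold change with SE (edgeR) of each member for sgMif against sgSCR (circles), shMif against shSCR (squares) and shSCR against sgSCR (diamonds); filled symbols have an adjusted p under 0.05. The squares of all 10 genes lie right of 0 and are open, 6 diamonds are filled and left of 0, and Fbln2 is the 1 filled circle.

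An effect of the Mif label common to both arms was not detected for any member. In the fit over both arms with the arm as a term, edgeR called 0 of 10 members (0% of all genes were called). DESeq2 also called 0. By edgeR 0 members had an unadjusted p under 0.05, where 3.73% of all genes were lower and 4.27% higher. In each of the 10 members the targeted and control libraries, pooled over the 2 arms, overlapped. Most genes did so: 1.77% of all genes lay lower and 1.64% higher without overlap.

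The genes nearest to the 3 members of widest range over the 8 libraries were found by the root mean square difference of centred log2 CPM among 9216 genes. Mfap4 was nearest to Sod3 (extracellular superoxide dismutase; 0.64), Ccn5 (a matricellular protein; 0.83) and Lum (lumican, a small leucine-rich proteoglycan; 0.88). Sod3 was at 119 and 177 CPM in sgSCR, 123 and 64.1 in sgMif, 5.71 and 8.56 in shSCR and 26.9 and 23.9 in shMif. Mfap2 had closer company in Ctxn1 (0.15), Cxcl12 (a chemokine of stromal cells; 0.18) and Mapk8ip1 (0.22), with Cxcl12 at 199 and 231 CPM in sgSCR, 230 and 273 in sgMif, 49.8 and 74.3 in shSCR and 81.7 and 112 in shMif. Fbn2 was nearest to Prss35 (0.51), Cth (cystathionine gamma-lyase; 0.53) and Prl2c2 (0.55). All these genes share the 8 libraries and their depth with the members, and the likeness is a description.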

How the data were processed

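Estimated counts and TPM of 116546 transcripts in 8 bulk RNA-seq libraries were deposited by the authors, per the file headers, as 1 Salmon table per library (Trimmomatic, Salmon and build mm10 per the submitters' processing notes; the sources used here give no versions, kit or strandedness, so overlapping antisense transcripts cannot be told apart). The deposited TPM are scaled to effective transcript length by the authors' tool.

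Transcripts were joined to 35498 genes with GENCODE M21 of mm10; 569 unmatched transcripts (0.101 to 0.205% of reads) were left out. Estimated counts were summed per gene, rounded, filtered (filterByExpr, minimum count 10, total 15) and fitted in edgeR 4.0.16 (R 4.3.3) with TMM scaling and glmQLFTest, 1 fit over the 4 groups with 4 residual degrees of freedom, or 5 with the arm as a term. P-values were adjusted over 16309 genes at a threshold of 0.05. The script was tested on simulated data. Alternatives were RLE scaling, DESeq2 1.42.0, no filter, length-scaled counts, a replicate block, protein-coding models, a term for libraries over 1000 CPM of olfactory transcripts, 1 arm alone and leaving out each library.

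All 10 members were named, with up to 4 genes of smallest p per list and the 3 genes nearest to each of the 3 members of widest range; the 3 called skin fibroblast markers and Acta2, Ly6a, Cd34 and the other marker genes given with values were chosen after their values were seen. The members and lists were chosen with earlier results of these data known.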

Additional observations from a re-analysis of the deposited data

Results flagged for a closer look

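Among the 10 members and the lists of partner, cross-linking, breakdown and receptor genes, 2 genes passed a test of the difference between the hairpin and guide arms in the effect of the Mif label; 15 genes of the whole table passed it. For Fbln5 the difference was 2.31 ± 0.28 SE on the log2 scale (edgeR adjusted p 0.0471), with both sgMif libraries lower and both shMif libraries higher than the controls of their arm. For Lox it was 1.91 ± 0.22 SE (edgeR adjusted p 0.0471), with the same arrangement of the libraries.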

How the results depend on the processing

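RLE scaling changed no count of called members, and each scaling moved the median over all genes by less than 0.1 on the log2 scale. The number of members lower in sgMif, 1 by edgeR, was 4 with DESeq2, 3 with no filter, 2 with the replicate block, 0 with length-scaled counts and 0 with the olfactory class term; it was 0 to 1 over the libraries left out. The number higher in shMif, 0 by edgeR, was 2 with DESeq2, 3 with no filter, 2 with the replicate block and 1 with the class term, and 0 to 4 over the libraries left out. For the difference of effects, 1 by edgeR, it was 5 with DESeq2, 5 with no filter, 2 with the replicate block, 2 with the class term, 0 with length-scaled counts and 0 with protein-coding models only, and 0 to 3 over the libraries left out. The number lower in shSCR, 6, was 2 with length-scaled counts and 2 to 6 over the libraries left out. Over both arms it was 1 higher with no filter and 0 otherwise. Counts over the whole table moved as well, and only their highest values over the alternatives are given. The member counts of a single setting therefore cannot be set against a share. Over the alternatives up to 1494 genes passed for sgMif and up to 2425 for shSCR, against 161 and 655 in the main fit. Up to 1306 passed for the difference of effects and up to 549 over both arms, against 15 and 0. The cause of these shifts was not tested. Leaving out a library leaves a group with 1, which is assumed to vary like the others.

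Signs turned for members near 0. For sgMif, Emilin1 was 0.0053 with no filter, 0.00097 with the replicate block and 0.0016 with protein-coding models, and Mfap2 was -0.10 with the class term; over the libraries left out Emilin1 spanned -0.096 to 0.088, Fbln1 -0.22 to 0.62 and Mfap2 -0.044 to 0.46. For shMif, Fbln1 was -0.0023 with no filter and -0.014 with length-scaled counts, and over the libraries left out it spanned -0.14 to 0.21, Emilin1 -0.030 to 0.86 and Fbn1 -0.10 to 0.41. For shSCR, Emilin1 spanned -0.79 to 0.10. In TPM the log2 ratio of mean levels, shSCR over sgSCR, was -0.030 for Fbn1, -4.13 for Fbn2, -4.18 for Mfap4 and -2.87 for Mfap5, against 0.12, -3.28, -5.22 and -2.03 in CPM.

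Deviations from group means correlated at 0.154 to 0.371 between same-numbered libraries of the 6 pairs of groups, but with 2 pairs per comparison the numbers are not shown to pair them. With the block Fbln5 passed in sgMif (adjusted p 0.0363) and shMif (0.0407), and Mfap4 in shMif (0.0494) and for the difference of effects (0.0418). With no filter the table tested more genes. Depth limits Eln, Fbn2 and Mfap5, at under 10 CPM in every library, and Mfap4 in shSCR and shMif, at under 10 CPM there.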

Other observations

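Receptors of elastin and the TGF-β and BMP genes that microfibrils hold in the matrix are further groups. Between the controls, 2.23% of all genes were called higher in shSCR by edgeR and 1.79% lower. Of 12 tested receptor genes, 2 were higher and none was lower. The 2 were Itgb1, the common integrin beta chain (log2 0.88 ± 0.18 SE, adjusted p 0.0377), and Itga8 (log2 2.34 ± 0.47 SE, adjusted p 0.0379). Of 18 tested TGF-β and BMP genes, 1 was higher and 1 lower in shSCR. Bmp4, a bone morphogenetic protein ligand, was at 7.42 and 8.72 CPM in sgSCR and 42.1 and 45.7 CPM in shSCR (log2 2.45 ± 0.21 SE, adjusted p 0.00228). Smad3, a transducer of TGF-β signals, had a log2 difference of -0.96 ± 0.19 SE (adjusted p 0.0382). In the guide arm the co-receptor Tgfbr3 was the 1 lower of these 18, where 0.619% of all genes were called lower. It was at 117 and 111 CPM in sgSCR and 48.7 and 60.8 CPM in sgMif (log2 -1.06 ± 0.16 SE, adjusted p 0.0333). None of the 12 receptors passed by edgeR, with 5 higher and 3 lower at an unadjusted p under 0.05 (9.09% and 7.51% of all genes). In the hairpin arm 0 of the 18 and 0 of the 12 passed by edgeR, and 0 and 2 had an unadjusted p under 0.05. Of all genes, 4.18% were higher and 5.08% lower at that unadjusted p.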
